A study of Danio rerio with 4 samples.

Results

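The p53 set described here holds 9 genes, mdm2, ccng1, cdkn1a, btg2, sesn1, phlda3, tp53inp1, ddb2 and zmat3, taken by gene symbol from the 30838 rows of the deposited table. All 9 were found in it, and 7 of them reached the mean of 1 TPM over the 4 libraries that was required for testing. TPM divides the reads of a gene by its length and scales each library to a common total, so that levels can be set side by side between genes. The genes were read in 2 libraries from smu07 mutants and 2 libraries from siblings, all larvae of the AB strain at 4 days post fertilization that received no treatment. Each library came from about 500 cells in the cd41:eGFP-low sorting gate, where blood stem and progenitor cells (HSPCs) are found, and cDNA was amplified before library construction. The series title names slc20a1b, a phosphate transporter gene, and the labels give neither the kind of lesion in smu07 nor the genotypes that the siblings include. Whether the numbered libraries of a group stem from different clutches or sorts is not stated, so the p-values rest on a spread between libraries that may be technical.

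The transcription factor p53 is held low by Mdm2, which binds it and marks it for degradation. DNA damage, nucleotide shortage, disturbed ribosome assembly and other stresses release it, and p53 then raises the transcription of genes that stop the cell cycle, repair DNA, adjust metabolism or, in other settings, kill the cell. One of its targets is mdm2 itself, which closes a feedback loop. Because p53 is controlled largely at the level of the protein, its targets are the usual transcript readout. In blood stem and progenitor cells of mammals the pathway restrains the cell cycle and removes damaged cells. Several of these targets are also controlled by other factors.

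The set did not move as a block. Of the 7 tested genes, cdkn1a and phlda3 were higher in the mutant libraries, sesn1 and btg2 were lower, and mdm2, tp53inp1 and ddb2 did not pass the test, which was limma on log2(TPM + 1) with Benjamini-Hochberg adjustment over all 12073 genes tested and a threshold of 0.05. The 4 called genes made up 57.1% of the 7, against 28.5% of all genes tested. By direction, 28.6% of the 7 were higher, against 9.91% of all genes, and 28.6% were lower, against 18.6%. The median log2 difference of the 7 was -0.05 and that of all genes was -0.14. Every tested gene stood at 1.99 TPM or more in each library, so none of them passed the filter through 1 group alone. The genes were chosen with earlier results of these data known, so these shares are not independent of that choice. With 7 genes they describe the set and were not tested.

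**Figure D1:**
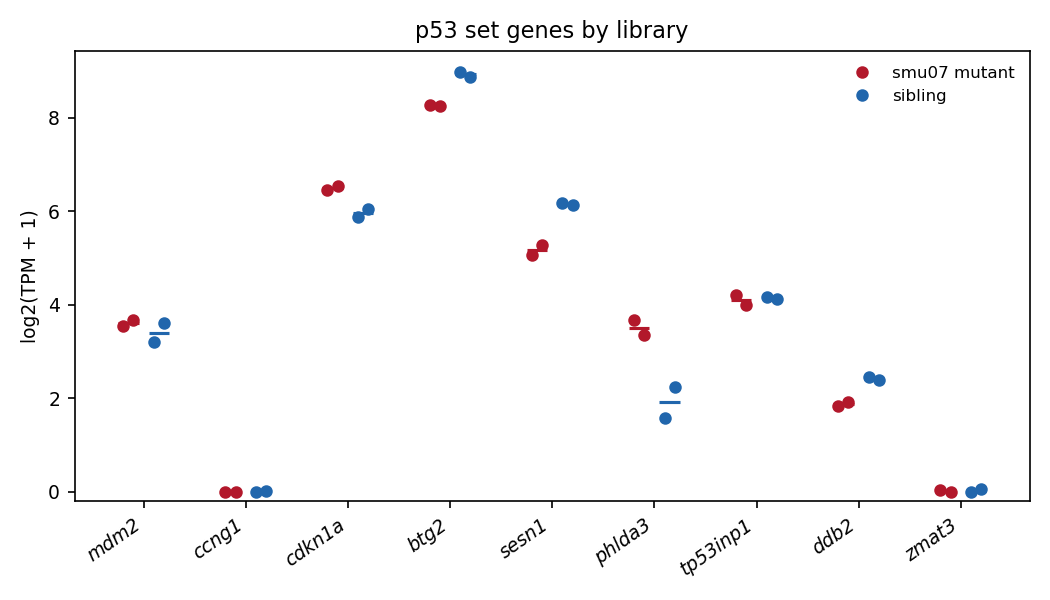
Level of each of the 9 genes as log2(TPM + 1) on the vertical axis, with smu07 mutant libraries in red on the left and sibling libraries in blue on the right (n = 2 each, short bars are means). The order from btg2 at the top, at 302 to 505 TPM, to ccng1 and zmat3 near 0 is wider than any difference between the groups.

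The levels of the 9 genes spanned a wide range in every library. The highest was btg2, between 302 and 505 TPM, and the next were cdkn1a and sesn1. These 2 changed places between the groups. In the mutant libraries cdkn1a stood 2.69 and 2.46 times as high as sesn1, whereas in the sibling libraries the ratio was 0.814 and 0.945. The genes tp53inp1, mdm2, phlda3 and ddb2 followed, between 1.99 and 17.4 TPM. Among these, tp53inp1 was the highest in all 4 libraries, phlda3 and mdm2 overlapped in the mutant libraries, and phlda3 was the lowest in both sibling libraries. The whole reads behind these values, recovered from the steps of the TPM values, ranged from 49 for phlda3 in sibling library 1 to 18576 for btg2 in the same library.

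The feedback gene of the set, mdm2, encodes the ubiquitin ligase that degrades p53. It stood at 10.6 and 11.7 TPM in the mutant libraries and at 8.21 and 11.1 TPM in the sibling libraries, from 995 and 1159 reads and from 651 and 926 reads. The groups overlapped, since sibling library 2 lay between the 2 mutant libraries. Its log2 difference was 0.20 with a 95% interval from -0.27 to 0.67 (limma, Benjamini-Hochberg adjusted p = 0.455), so neither no change nor a moderate rise is outside the interval. Sibling library 1 weighed on this value, since the difference was 0.0015 without it and 0.40 without sibling library 2.

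The gene mdm4, which is not one of the 9 genes, encodes a relative of Mdm2 that blocks p53 as a transcription factor. It read 16.2 and 18.0 TPM in the mutant libraries and 22.3 and 25.6 TPM in the sibling libraries, with no overlap. Its log2 difference of -0.46 missed the threshold (limma adjusted p = 0.0589), and it passed with a filter of 5 TPM (adjusted p = 0.0448) and without sibling replicate 1 (adjusted p = 0.0225).

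The second gene tied to Mdm2, ccng1, encodes cyclin G1, which in mammals brings a phosphatase to Mdm2. It was listed at 0 in both mutant libraries and at 0 and 0.0136 TPM in the sibling libraries, which is 1 read in all. In the mutant libraries a count of 0 allows up to 3 reads, or 0.0362 and 0.0343 TPM, and this limit covers counting error only. A value of 0 in this table cannot be taken as an unexpressed gene. The mitotic kinase gene cdk1, which dividing cells need, was also listed at 0 in all 4 libraries, and the erythroid factor gene gata1a was at 0 in both mutant libraries and at 0.017 and 0 TPM in the sibling libraries. The same holds for zmat3, which encodes a zinc finger protein that binds RNA in mammals. It had 1 read in mutant library 1 and 1 read in sibling library 2, at 0.0298 and 0.0336 TPM. No difference was computed for either gene.

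The best known arrest target, cdkn1a, encodes p21, an inhibitor of cyclin-dependent kinases that halts cells before DNA replication. It rose to 86.7 and 92.3 TPM in the mutant libraries, against 57.6 and 65.4 TPM in the sibling libraries. Both mutant libraries lay above both sibling libraries. The means were 89.5 ± 4.01 and 61.5 ± 5.54 TPM (SD, n = 2 each), a ratio of 1.45. This gave a log2 difference of 0.54 (SE 0.11, limma adjusted p = 0.0213). It missed the threshold when all rows above 0 were tested (adjusted p = 0.0517) and without the mean-variance trend (adjusted p = 0.0616).

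The other arrest gene, btg2, moved the opposite way. It encodes an antiproliferative protein that works with deadenylases on mRNA and in mammals also lowers cyclin D1. It fell to 307 and 302 TPM in the mutant libraries, against 505 and 470 TPM in the sibling libraries. The mutant libraries lay close to each other and far below the sibling pair. The means were 305 ± 3.28 and 488 ± 24.7 TPM (SD, n = 2 each), so that siblings stood 1.60 times as high. The log2 difference was -0.68 (SE 0.08, limma adjusted p = 0.00671). The ratio of btg2 to cdkn1a, which are both arrest genes of the pathway, was 3.54 and 3.27 in the mutant libraries, against 8.77 and 7.19 in the sibling libraries.

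The gene with the largest fall in the set was sesn1, which encodes a sestrin, a stress protein that in mammals restrains the growth kinase complex mTORC1 when leucine is short. It fell to 32.2 and 37.6 TPM in the mutant libraries, against 70.8 and 69.2 TPM in the sibling libraries. The groups were far apart relative to their spread. The means were 34.9 ± 3.76 and 70.0 ± 1.12 TPM (SD, n = 2 each), so that siblings stood 2.01 times as high. On the log2 scale the difference was -0.99 (SE 0.12, limma adjusted p = 0.00699), the 612th lowest of the genes tested.

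The largest rise in the set was that of phlda3, which encodes a small pleckstrin homology domain protein that in mammals competes with the kinase Akt for membrane lipids. It rose to 11.7 and 9.22 TPM in the mutant libraries, against 1.99 and 3.72 TPM in the sibling libraries. The groups did not overlap, and the sibling libraries lay further apart from each other on the log2 scale than the mutant libraries did. The means were 10.5 ± 1.76 and 2.86 ± 1.22 TPM (SD, n = 2 each), a ratio of 3.66. The log2 difference was 1.60 (SE 0.27, limma adjusted p = 0.0124), the 241st highest of the genes tested. The reads were few, with 340 and 283 in the mutant libraries, against 49 and 96 in the sibling libraries, and the call was lost when all rows above 0 were tested (adjusted p = 0.0532).

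The autophagy and cell death gene tp53inp1 encodes a nuclear stress protein. It read 17.4 and 14.9 TPM in the mutant libraries and 16.8 and 16.5 TPM in the sibling libraries. Both sibling libraries lay between the mutant libraries. The log2 difference was -0.05 with an interval from -0.41 to 0.31 (limma adjusted p = 0.833), and its sign changed between settings, from -0.15 to 0.14.

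The repair gene ddb2 encodes the subunit of the UV-damaged DNA binding complex that finds lesions for nucleotide excision repair. It stood at 2.55 and 2.78 TPM in the mutant libraries and at 4.44 and 4.21 TPM in the sibling libraries. The groups did not overlap, as in 5 of the 7 tested members, or 71.4%, against 70% of all genes tested. The log2 difference was -0.54 with an interval from -1.0 to -0.08 (limma unadjusted p = 0.029, adjusted p = 0.0787). It missed the threshold in the main test and in each of the 11 alternatives in which it was tested, in which the adjusted p ranged from 0.0522 to 0.382. Its partner subunit gene ddb1 was higher than ddb2 in every library, at 48.1 and 38.1 TPM in the mutant libraries and 35.8 and 31.4 TPM in the sibling libraries (log2 difference 0.34, limma adjusted p = 0.145).

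**Figure D2:**
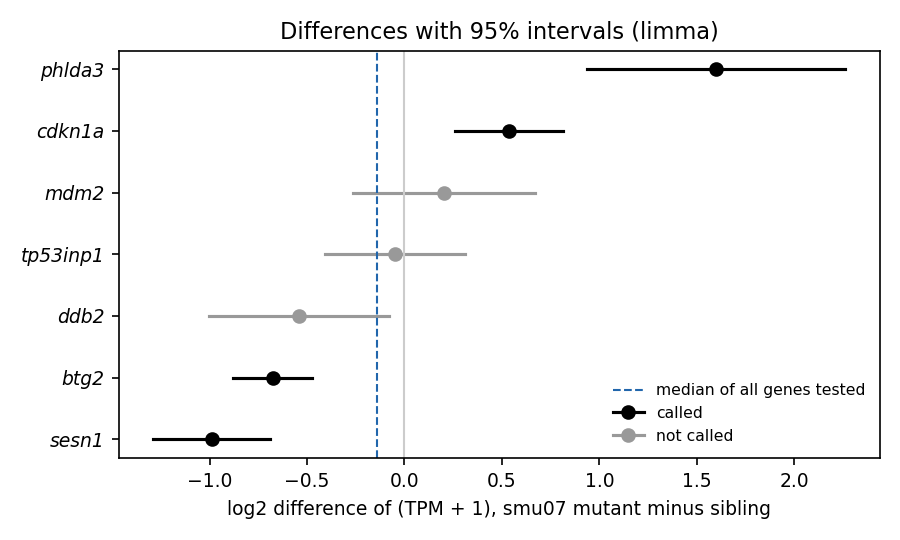
Log2 difference of the 7 tested genes, smu07 mutant minus sibling, on the horizontal axis, with 95% intervals from limma. Black marks the 4 called genes, phlda3 and cdkn1a to the right and btg2 and sesn1 to the left, grey marks the 3 that were not called, and the dashed line is the median of all genes tested at -0.14.

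The 4 calls needed both mutant libraries. Without mutant replicate 1 or without mutant replicate 2 no gene of the set and no gene of the other pathway lists was called, and among all 12073 genes limma then called 0 higher and 4 or 3 lower, with an unadjusted p under 0.05 in 2899 and 3129 of them. In these 2 fits the adjusted p of btg2 and sesn1 lay between 0.0894 and 0.107 and that of cdkn1a and phlda3 between 0.120 and 0.162. Without either sibling library all 4 genes remained called. No library turned the direction of any of the 4, whose log2 differences ranged from 0.45 to 0.63 for cdkn1a, from 1.27 to 1.93 for phlda3, from -0.73 to -0.63 for btg2 and from -1.09 to -0.88 for sesn1 as 1 library was left out.

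Relatives of the members were read beside them. Of 16 paralogs and partners of the members, 14 were tested, and 5 were higher and 2 lower in the mutant libraries, with a median log2 difference of 0.34. Among all genes tested 9.91% were higher and 18.6% lower, with a median of -0.14. The sestrin family split. Where sesn1 fell, sesn2 rose to 27.6 and 24.7 TPM in the mutant libraries, against 8.08 and 11.6 TPM in the sibling libraries (log2 difference 1.34, SE 0.20, limma adjusted p = 0.00913). The third sestrin gene, sesn3, rose to 4.37 and 5.19 TPM, against 1.56 and 2.0 TPM in the sibling libraries (log2 difference 1.06, limma adjusted p = 0.0180), and its call was lost with no filter on low values. In mammals SESN2 is also a target of the stress factor ATF4 and SESN3 of FOXO factors. The 3 genes summed to 64.2 and 67.5 TPM in the mutant libraries and 80.4 and 82.9 TPM in the sibling libraries, and sesn1 made up 50.2 and 55.6% of that sum in the mutant libraries, against 88.0 and 83.5% in the sibling libraries.

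Of the BTG genes a second one was lower, as btg3 fell to 15.9 and 14.4 TPM in the mutant libraries, against 38.4 and 38.3 TPM in the sibling libraries (log2 difference -1.29, SE 0.13, limma adjusted p = 0.00483). The more abundant btg1 read 1046 and 870 TPM in the mutant libraries and 710 and 805 TPM in the sibling libraries and missed the threshold (log2 difference 0.34, limma adjusted p = 0.0756). It passed under median-of-ratios scaling (adjusted p = 0.0455), quantile normalization (0.0408), voom on recovered reads (0.0246) and without sibling replicate 2 (0.0397), and its log2 difference ranged from 0.20 without mutant replicate 1 to 0.47 without mutant replicate 2. The sum of btg1, btg2 and btg3 overlapped between the groups, at 1369 and 1187 TPM in the mutant libraries and 1253 and 1314 TPM in the sibling libraries. Of that sum btg2 made up 22.4 and 25.5% in the mutant libraries, against 40.3 and 35.8% in the sibling libraries.

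Among the relatives of p21, cdkn1ca, which encodes a p57-type inhibitor, fell to 9.60 and 9.82 TPM in the mutant libraries, against 19.9 and 19.7 TPM in the sibling libraries (log2 difference -0.96, SE 0.14, limma adjusted p = 0.00908). Others rose, namely cdkn1ba by 0.83 (limma adjusted p = 0.0297) and cdkn1d by 1.35 on the log2 scale (limma adjusted p = 0.0431), both named after their values were seen. Their calls were lost with no filter on low values, and that of cdkn1d also with a pseudocount of 0.1 and without the mean-variance trend. Its sibling libraries differed, at 5.50 and 1.92 TPM, and the difference was 0.77 without sibling replicate 2. The paralogs of cdkn1ba and cdkn1ca were not called and leaned the other way. The more abundant cdkn1bb read 78.0 and 88.2 TPM in the mutant libraries and 102 and 90.8 TPM in the sibling libraries (log2 difference -0.21, limma adjusted p = 0.215). The values of cdkn1cb were 4.32 and 7.83 TPM against 3.42 and 2.24 TPM (log2 difference 0.86, limma adjusted p = 0.0823). The cyclin G1 relative ccng2, a gene of cyclin G2, rose to 160 and 157 TPM, against 118 and 109 TPM in the sibling libraries (log2 difference 0.48, SE 0.09, limma adjusted p = 0.0180). It missed the threshold without the mean-variance trend (adjusted p = 0.0680). In the same libraries ccng1 had a single read.

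**Figure D3:**
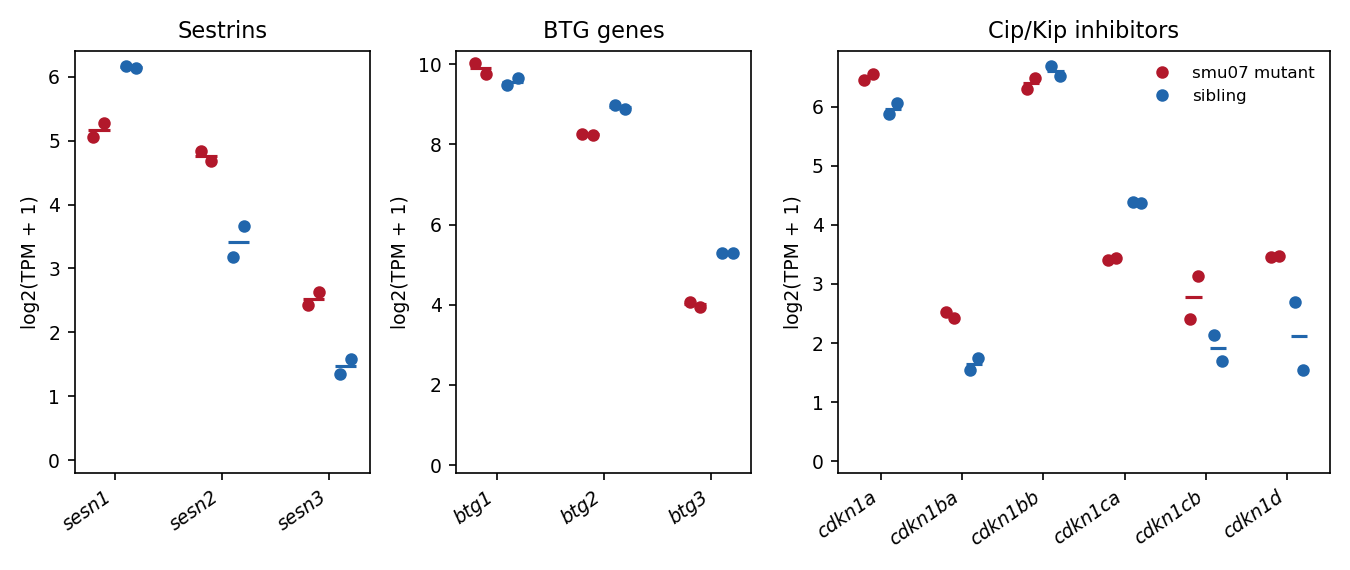
Levels of the sestrin genes, the BTG genes and the Cip/Kip inhibitor genes as log2(TPM + 1), with smu07 mutant libraries in red on the left and sibling libraries in blue on the right (n = 2 each, short bars are means). The gene sesn1 is lower and sesn2 and sesn3 are higher in the mutant libraries, and btg2 and btg3 are lower. Among the inhibitors cdkn1a, cdkn1ba and cdkn1d are higher and cdkn1ca is lower, while cdkn1bb and cdkn1cb were not called.

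Among 23 regulators of p53, 17 were tested, of which limma called 0 higher and 3 lower, or 17.6%, against 18.6% of all genes. The checkpoint kinase gene chek1 fell to 4.23 and 5.14 TPM in the mutant libraries, against 8.75 and 11.5 TPM in the sibling libraries (log2 difference -0.96, limma adjusted p = 0.0209). The genes of the acetyltransferase Tip60, kat5a and kat5b, fell by 0.65 and 0.95 on the log2 scale. The call of kat5a was lost under both scaling alternatives and without the mean-variance trend, and those of kat5a and chek1 with no filter on low values. The median of the list was -0.44, against -0.14 for all genes, and 3 of the 17 had a positive log2 difference. The list shares mdm4 with the paralogs above. At an unadjusted p under 0.05, 9 of the 17 were lower and 1 was higher, or 58.8% in all, against 43.4% of all genes. The shares of all genes by direction at that threshold, or with a positive difference, are not given here, so this split has no background beside it. With voom on recovered reads the calls were 3 higher and 5 lower, against 1512 higher and 2034 lower of all 12073 genes.

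Other arrest and repair targets moved both ways. Of the 28 genes listed, 19 were tested, and 6 were higher and 6 lower, with a median of 0.18. Over all genes tested, 9.91% were higher and 18.6% lower, with a median of -0.14. The list shares sesn2, sesn3, ccng2, btg1 and btg3 with the paralogs above and pcna with the partners of p21 below. These genes are counted in both lists. Among the higher ones, rps27l, a ribosomal protein gene that p53 induces in mammals and that is listed under an older symbol here, rose to 548 and 624 TPM in the mutant libraries, against 313 and 317 TPM in the sibling libraries (log2 difference 0.89, SE 0.09, limma adjusted p = 0.00502). The growth arrest gene gadd45ab rose to 9.63 and 11.3 TPM, against 3.77 and 3.35 TPM in the sibling libraries (log2 difference 1.33, limma adjusted p = 0.00813). Its relative gadd45aa, named after its values were seen, rose by 1.01 on the log2 scale, while the most abundant one, gadd45ba, read 981 and 888 TPM in the mutant libraries and 979 and 983 TPM in the sibling libraries. In contrast gadd45bb, also named after its values were seen, fell to 120 and 100 TPM in the mutant libraries, against 141 and 155 TPM in the sibling libraries (log2 difference -0.42, limma adjusted p = 0.0480), a call that was lost under 7 of the 8 alternatives that kept all libraries. Among the lower ones besides btg3, the Polo-like kinase gene plk3 fell to 101 and 95.7 TPM in the mutant libraries, against 155 and 163 TPM in the sibling libraries (log2 difference -0.69, limma adjusted p = 0.00813). The gene gtse1, whose product restrains p53 in the G2 phase of mammalian cells, fell by 1.04 on the log2 scale.

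Of 16 measured cell death genes, named death targets below, 15 were tested, and 2 were higher and 6 lower, with a median of -0.37. For comparison, 9.91% of all genes tested were higher and 18.6% lower, with a median of -0.14. The BH3-only gene bbc3, which encodes Puma, had the largest change of the list. It rose to 17.9 and 18.9 TPM in the mutant libraries, against 5.06 and 3.43 TPM in the sibling libraries (log2 difference 1.91, SE 0.20, limma adjusted p = 0.00531). The death receptor gene tnfrsfa rose by 0.83 on the log2 scale, a call that was lost with no filter on low values. The BH3-only gene bida fell to 97.9 and 108 TPM in the mutant libraries, against 197 and 171 TPM in the sibling libraries (log2 difference -0.83, limma adjusted p = 0.00813), and aifm2 and tp53i11a fell by 0.61 and 0.97 on the log2 scale. The pore-forming gene baxa, named after its values were seen, fell by 0.56 on the log2 scale (limma adjusted p = 0.0260) and missed the threshold with no filter on low values, without the mean-variance trend and under quantile normalization, where aifm2 missed it too. The most abundant gene of the list, pmaip1, which encodes Noxa, read 243 and 232 TPM in the mutant libraries and 270 and 364 TPM in the sibling libraries and was not called (log2 difference -0.40, limma adjusted p = 0.0939). It was called without sibling replicate 1 (-0.61, adjusted p = 0.00464), and the difference was -0.18 without sibling replicate 2. Under quantile normalization the lower calls of this list numbered 2 in place of 6, and those of all genes tested numbered 1390 in place of 2247.

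**Figure D4:**
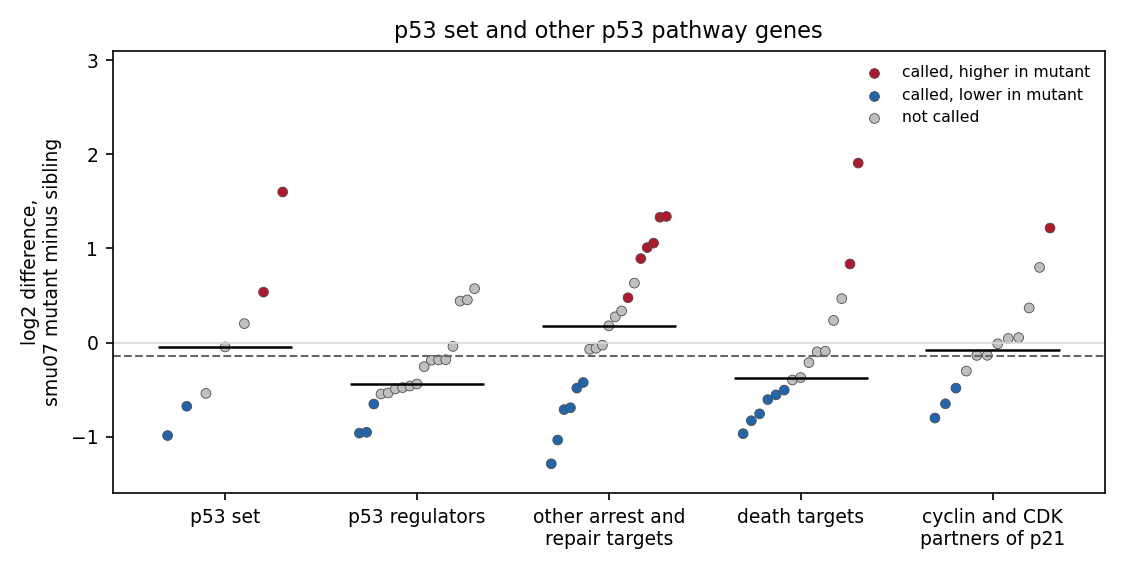
Log2 difference, smu07 mutant minus sibling, of each tested gene of the p53 set and of 4 lists of other pathway genes, with black bars at the list medians and a dashed line at the median of all genes tested, -0.14. Called genes lie on both sides of 0 in the p53 set and in 3 of the lists, and the p53 regulators hold 3 called genes, or 17.6%, against 18.6% of all genes called lower.

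The cyclins and kinases that p21 binds were read with its other partner pcna and the genes of the Rb pathway. Of these 16 genes 12 were tested, and 1 was higher and 3 were lower, with a median of -0.07. The shares over all genes tested were 9.91% higher and 18.6% lower, with a median of -0.14. The cyclin gene ccne2 rose to 25.9 and 27.9 TPM in the mutant libraries, against 10.8 and 11.2 TPM in the sibling libraries (log2 difference 1.22, SE 0.14, limma adjusted p = 0.00568). The genes ccnd2a, ccna2 and pcna fell by 0.80, 0.65 and 0.48 on the log2 scale. The call of ccna2 was lost under quantile normalization and that of pcna without the mean-variance trend. The sliding clamp gene pcna, itself a p53 target in mammals, read 967 and 992 TPM in the mutant libraries and 1431 and 1312 TPM in the sibling libraries. The most abundant one that was not called, ccnd1, read 68.1 and 81.8 TPM in the mutant libraries and 52.1 and 63.8 TPM in the sibling libraries (log2 difference 0.37). It was called under quantile normalization (0.60), with voom (0.45) and without sibling replicate 2 (0.51).

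Other features of the libraries moved with the genotype. Recovered reads numbered 28275628 and 29949986 in the mutant libraries, against 25104341 and 26600598 in the sibling libraries, genes above 0 numbered 23881 and 23978 in the mutant libraries against 19528 and 19811 in the siblings, and mt-rnr2, a mitochondrial ribosomal RNA, took 10.15 and 11.97% of TPM against 8.22 and 8.53%. The transcript slc20a1b stood at 49.3 and 53.8 TPM in the mutant libraries and 39.3 and 42.4 TPM in the siblings (limma adjusted p = 0.0827), which does not check the genotype labels without knowledge of the lesion. The cd41 transcript itself, itga2b, stood at 23.5 and 19.3 TPM in the mutant libraries, against 50.8 and 66.9 TPM in the siblings. Its log2 difference was -1.41 (limma adjusted p = 0.00703), and it is counted among the thrombocyte markers below. Of 10 stem and progenitor markers 9 stood at 1 TPM or above in every library, and 1 was called higher and 4 lower. The shares over all genes tested were 9.91% higher and 18.6% lower. The lower marker gfi1aa, with a mutant mean of 0.65 TPM and a sibling mean of 3.51 TPM, passed the filter only through the siblings. Among all genes tested, 1196 were called higher and 2247 lower, a lower share of 65.3%, against 54.2% under median-of-ratios scaling and 51.1% under quantile normalization.

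Markers of other cell types also differed. Their counts stand beside 9.91% of all genes tested that were called higher and 18.6% called lower. Of 10 erythroid markers 8 were tested and 7 were lower, with summed levels of 506 and 591 TPM in the mutant libraries and 1583 and 1044 TPM in the siblings, and gata1a and alas2 at or near 0 in all. Of 8 thrombocyte markers, all tested, 5 were lower and 1 higher, with sums of 957 and 1107 TPM against 2120 and 1959 TPM. The larger part of these sums was a single gene, blf, at 555 and 755 TPM against 1637 and 1414 TPM. Of 10 macrophage markers 6 were tested and all 6 were higher, with sums of 881 and 849 TPM against 314 and 293 TPM, and mpeg1.1, c1qa, c1qb and c1qc at or near 0. Here too a single gene, ctsl.1, made up the larger part of the sums, at 558 and 564 TPM against 189 and 151 TPM. Of 11 keratinocyte markers 7 were tested and all 7 were higher, with sums of 375 and 223 TPM against 43.5 and 39.3 TPM. The marker epcam was at 0 in all 4 libraries. For krt91, cyt1, cyt1l and krt4 the sibling means were 0, 0.59, 0.73 and 0.92 TPM. These genes passed the filter only through the mutant libraries, so a fall could not have been called for them. Of 6 tested neutrophil markers 3 were higher and 1 lower, of 5 lymphoid markers 0 were higher and 4 lower, of 5 endothelial markers 2 were higher and 2 lower, of 4 muscle markers 1 was higher, and of 2 neural markers 1 was higher. The called muscle marker tpma and endothelial marker stab1 passed the filter through the mutant libraries, with sibling means of 0.20 and 0.92 TPM. The lymphoid marker zap70 passed it through the siblings, with a mutant mean of 0.99 TPM. In bulk libraries a changed mix of cells and a changed amount of RNA per cell cannot be told apart, and the part of these cell types in the differences of the p53 set was not tested.

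**Figure D5:**
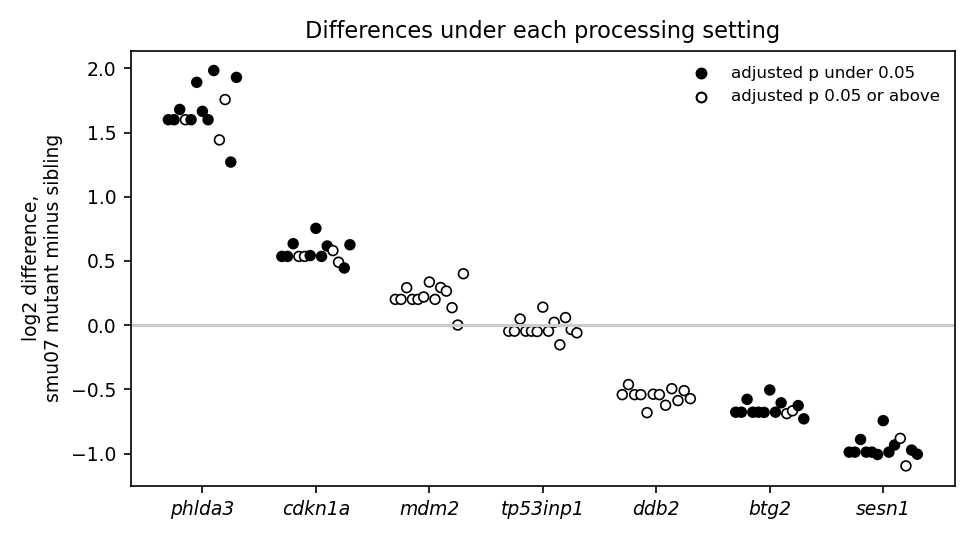
Log2 difference of each tested gene, smu07 mutant minus sibling, under the main setting and each alternative, 1 point for each setting, filled where the adjusted p was under 0.05. The points of phlda3 and cdkn1a stay above 0 and those of ddb2, btg2 and sesn1 below it, while those of tp53inp1 lie on both sides.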

How the data were processed

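Expression was measured by RNA-seq of sorted cells. The authors deposited TPM values, 1 column per library. The tools named in the submitters' processing notes are FastQC, STAR, featureCounts and DESeq2, and the build is GRCz11. Their versions, the annotation and the use of strand were not given in the sources at hand, so reads of overlapping or antisense genes may be shared. TPM is relative to the library total, so abundant genes that rise push down the values of the rest.

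All 26105 rows above 0 in at least 1 library were whole reads over a whole gene length, within 0.0001 reads, which gave the depth. When reads were simulated around these counts and recovered anew, 92.8% of 25447 genes came back exactly. Recovered reads are the smallest whole numbers that give the TPM values, and amplified reads are not independent molecules, so read counts cover counting error only.

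The 12073 genes that averaged 1 TPM or more were tested on the log2(TPM + 1) scale in limma 3.58.1 (R 4.3.3; lmFit, then eBayes with trend), mutant against sibling, and called at a Benjamini-Hochberg adjusted p under 0.05. Differences on this scale understate the change of low genes. Intervals are 95%. Older symbols were matched through RefSeq (GRCz12tu); of the rows, 24698 carried a RefSeq symbol or synonym.

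The members and lists were chosen with earlier results of these data known. All members are named, with mdm4, and from each pathway list up to 5 called genes with the smallest p and the most abundant gene not called; 1 gene that this rule also names is not reported here. No sequences were used here. Alternatives were another pseudocount, filters, scalings, no trend, a replicate block, voom on recovered reads and leaving out each library.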

Additional observations from a re-analysis of the deposited data

How the results depend on the processing

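Among cdkn1a, phlda3, btg2, sesn1, ddb2 and mdm2, 0 changed direction under the 12 alternatives (11 for ddb2). Over all genes, 1321 of 26105 were called higher and 1124 lower with no filter, and 778 of 7337 higher and 2195 lower with a filter of 5 TPM. The other settings tested 12073 genes. There 1329 were higher and 1390 lower under quantile normalization, 1029 and 1541 without the trend, 981 and 1682 with the replicate block, and 1512 and 2034 with voom. The counts below stand beside these and were not tested against them. In the p53 set 0 were called higher with no filter and 1 without the trend. Among the p53 regulators 1 was higher and 1 lower with no filter, and 3 and 5 with voom. The arrest and repair targets had 3 lower without the trend. The death targets had 1 higher with no filter and 2 lower under quantile normalization. The paralogs had 2 higher with no filter, 3 with a filter of 5 TPM and 3 without the trend. The partners of p21 had 2 higher under quantile normalization, 2 with the replicate block and 2 with voom. The immediate early genes had 5 higher and 1 lower under quantile normalization, 0 lower with no filter and 0 lower without the trend.

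As 1 library was left out, the count called higher ranged from 0 to 2044 and lower from 3 to 3206, the set from 0 to 2 in each direction, the regulators from 0 to 1 higher and 0 to 6 lower, the arrest and repair targets from 0 to 8 and 0 to 6, the death targets from 0 to 3 and 0 to 8, the paralogs from 0 to 6 and 0 to 3, the partners of p21 from 0 to 2 and 0 to 3, and the immediate early genes from 0 to 5 and 0 to 3. The zeros came from leaving out a mutant library. With 1 library in an arm, it is assumed to vary like the others, so the spread between libraries comes from the other pair alone. The median gap between the 2 libraries of a group was 0.15 on the log2 scale in the mutants and 0.23 in the siblings. The cause of the zeros was not tested.

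The deviations of same-numbered libraries correlated at -0.046 over 12073 genes. This compares a single difference within each group, so it cannot tell whether same-numbered libraries share a clutch or sort. With the replicate block 981 genes were higher and 1682 lower, and in the p53 set 2 were higher and 2 lower. Of the genes named, cdkn1ba and gadd45bb lost their calls with the block (adjusted p = 0.0562 and 0.0766).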

Other observations

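Immediate early genes, which cells switch on within minutes of stimulation or handling and among which btg2 is also counted in mammals, did not move together. All 15 in the table were tested, and 3 were higher and 2 lower in the mutant libraries, with a median log2 difference of 0.02. Over all genes tested, 9.91% were higher and 18.6% lower, with a median of -0.14. The AP-1 gene jund rose to 80.3 and 80.7 TPM in the mutant libraries, against 28.7 and 28.5 TPM in the sibling libraries (log2 difference 1.46, SE 0.11, limma adjusted p = 0.00265). The stress factor gene atf3 rose to 167 and 155 TPM, against 48.5 and 69.0 TPM in the sibling libraries, and jun rose by 0.57 on the log2 scale. The genes junbb and egr3 fell by 0.50 and 0.76 on the log2 scale. The calls of jun, junbb and egr3 were lost with no filter on low values and without the mean-variance trend, and that of egr3 also under quantile normalization. The most abundant gene that was not called, ier2a, read 1194 and 1080 TPM in the mutant libraries and 1099 and 1141 TPM in the sibling libraries.

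In the RefSeq annotation of GRCz12tu, btg2 and cdkn1a lie on the same chromosome with 9 annotated genes between them, although 1 fell and the other rose.

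Of the 107 genes in the table that the pathway lists hold, 22 lay below the filter and 8 were listed at 0 in all 4 libraries, namely rchy1, gadd45ga, plk2b, polh, casp3a, phlda2, btg4 and cdk1.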
